A study of Mus musculus and Homo sapiens with 352 samples.

Results

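The neighbourhoods of imprinted genes in 10 windows of the mouse genome were examined for binding of CTCF and for the chromatin interactions anchored at CTCF sites. In an imprinted domain 1 parental copy of a gene is expressed and the other is silent, as marked by DNA methylation that differs between the copies. CTCF is a DNA-binding protein with an array of zinc fingers; its motif has a direction, and CTCF stands at the ends of many chromatin loops. At the H19/Igf2 domain it is known to bind the unmethylated maternal copy of the control region upstream of H19 and to keep shared enhancers from Igf2, and at Rasgrf1 a methylation-sensitive CTCF site is known to act as an enhancer blocker.

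The windows were proposed with earlier results of these data known; the rule itself is a set of mm9 coordinates and sets no threshold on a measured value. They were H19/Igf2/Kcnq1 (chr7:149400000-150900000), Dlk1/Meg3 (chr12:110300000-111600000), Snrpn (chr7:66600000-67700000), Peg3 (chr7:6200000-7200000) and Igf2r (chr17:12300000-13400000). The others were Gnas (chr2:173600000-174600000), Peg10 (chr6:4200000-5200000), Mest (chr6:30200000-31200000), Grb10 (chr11:11750000-12750000) and Rasgrf1 (chr9:89300000-90300000). Members were the CTCF peaks and interaction anchors that overlapped a window. They comprised 206 of 39438 CTCF peaks of wild-type CH12 cells, 271 of 59978 CTCF peaks of B cells, 82 of 13547 anchors of the wild-type interaction list and 61 of 12476 anchors of the mutant list. In all, 97 of 16928 anchors used in either list lay in a window, and 132 of 17954 interactions had at least 1 anchor there.

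The series holds 352 samples, of which 2 interaction libraries and 2 CTCF peak lists are used here. Interactions came from CTCF ChIA-PET in CH12, a B lymphoma cell line of the mouse; the assay joins DNA ends held together in immunoprecipitated chromatin and reads them as pairs. The first library was made from cells with the genotype WT and the other from cells with the genotype CTCFmZF9to11, a mutated CTCF whose label names zinc fingers 9 to 11, called mutant below; whether the mutant line is a single clone is not stated in the labels. The CH12 peaks come from WT cells; the B cell list names resting and activated B cells and does not say which libraries entered it. The labels describe spleen B cells of genotype WT with CTCF libraries after activation for 24 h (2 libraries) and for 30 h (2 untreated and 2 labelled HU treated).

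The wild-type list held 74198 supporting tags in all and the mutant list 82222, a ratio of 1.108 to which tag ratios below are scaled. A tag is 1 sequenced pair that links 2 anchors, and both lists leave out interactions under 3 tags, so these sums are not library depths. With 1 library per genotype no difference below has a replicate check, and every test compares 2 libraries, not genotypes. Neither kind of list separates the maternal from the paternal copy. No mm9 annotation was used; gene order is taken from RefSeq on GRCm38.p6, by name only.

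CTCF peaks were dense in the H19/Igf2/Kcnq1 window and nearly missing from the Snrpn window. The H19/Igf2/Kcnq1 window held 70 CH12 peaks (46.7 per Mb) and 74 B cell peaks (49.3 per Mb). In that window H19, a long noncoding RNA gene, is followed by Igf2, which encodes a fetal growth factor, and further along by Kcnq1, a potassium channel gene, Kcnq1ot1, an antisense RNA that silences neighbouring genes, and Cdkn1c, a cell cycle inhibitor. Across 2569 tiles of 1 Mb the median was 11 CH12 peaks and 16 B cell peaks, and 142 tiles held at least as many CH12 peaks per Mb as the H19/Igf2/Kcnq1 window. The window is 1.5 Mb long, so its density is an average over more sequence than a tile. The Igf2r, Rasgrf1 and Mest windows came next, with 27.3, 26.0 and 24.0 CH12 peaks per Mb. Igf2r encodes the receptor that clears IGF2, Rasgrf1 a Ras exchange factor, and Mest a protein of the hydrolase fold family.

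The Gnas and Peg3 windows held 19 and 14 CH12 peaks, and Grb10 and Peg10 held 10 and 9, all in windows of 1 Mb. Gnas encodes the alpha subunit of the stimulatory G protein, Peg3 a zinc finger protein, Grb10 an adaptor that dampens insulin receptor signalling, and Peg10 a protein derived from a retrotransposon. In the Snrpn window, named for a spliceosomal protein gene, the CH12 list held 1 peak at chr7:67531822-67532179, at the 14.7th percentile of peak scores, and the B cell list held 3. The longest stretch of that window without a CH12 peak was 932 kb, against 129.6 kb in the Igf2r window. Of the 2569 tiles, 374 held no CH12 peak at all.

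**Figure D1:**
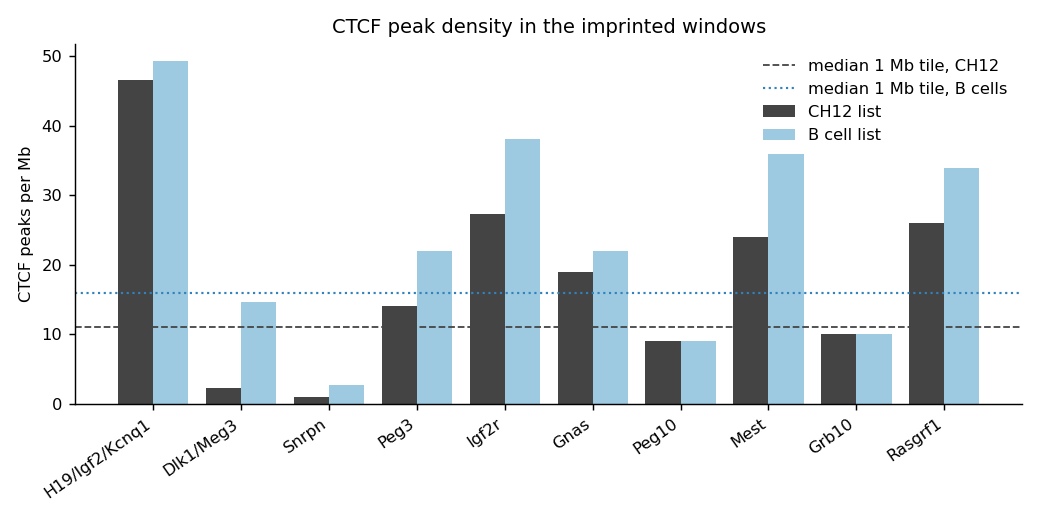
CTCF peaks per Mb (y axis) in each window (x axis), dark bars for the CH12 list and light bars for the B cell list, with dashed and dotted lines at the medians of 11 and 16 peaks over 1 Mb tiles. The H19/Igf2/Kcnq1 window stands highest in both lists, and the Dlk1/Meg3 window has the lowest ratio of CH12 to B cell peaks (15.8 per 100).

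Most CH12 peaks in the windows had a counterpart in B cells. Of the 206, 189 overlapped a B cell peak by at least 1 bp (91.7%, 95% Wilson interval 87.2 to 94.8), beside 89.5% of the whole CH12 list. In the other direction 186 of 271 B cell peaks overlapped a CH12 peak (68.6%, 62.9 to 73.9), beside 58.5% of the whole B cell list. The second share was highest in the H19/Igf2/Kcnq1 window, where 62 of 74 B cell peaks were shared (83.8%, 73.8 to 90.5). Over the other 9 windows it was 62.9% (56.0 to 69.4), an interval that includes the whole-list value. That pooled share includes Dlk1/Meg3 (10.5%) and Snrpn (33.3%, from 3 peaks). It was 80.0% at Grb10, 77.8% at Peg10, 73.5% at Rasgrf1, 72.7% at Gnas and 69.0% at Igf2r. At Mest it was 63.9% and at Peg3 59.1%. Apart from Dlk1/Meg3, the interval of each of these single windows includes the whole-list value. Intervals cover counting error only and treat peaks as independent.

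The Dlk1/Meg3 window departed furthest from this pattern. Dlk1 encodes a transmembrane protein of the Notch ligand family, and Meg3 a noncoding RNA of the opposite parental copy. Here the CH12 list held 3 peaks and the B cell list 19, and 2 of those 19 were in the CH12 list (10.5%, 2.94 to 31.4). That is 15.8 CH12 peaks per 100 B cell peaks. Among 1535 tiles with over 10 B cell peaks the median was 64.9, and 12 tiles were at or below the value of this window. The window is 1.3 Mb long and the tiles 1 Mb.

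The B cell peaks missing from the CH12 list at Dlk1/Meg3 included strong ones. The highest peak of the window, at chr12:110631941-110632512, had a fold over background of 15.8, at the 98.9th percentile of the B cell list, and no CH12 counterpart. Of the B cell peaks above the 90th percentile of their list, 4 lay in this window and all 4 were absent from the CH12 list. Over all windows 7 of 31 such peaks were absent (22.6%, 11.4 to 39.8), beside 14.8% of the 5998 in the whole list. The H19/Igf2/Kcnq1 window held 9 of the 31, and each of those 9 had a CH12 peak.

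The 3 CH12 peaks of the Dlk1/Meg3 window ran from a moderate to a very low score. They lay at chr12:110309309-110309936 (74.6th percentile), chr12:110552981-110553482 (42.7th) and chr12:111048969-111049237 (1.66th), and the last had no B cell counterpart. The first pair was matched by B cell peaks of 10.6-fold and 10.0-fold. No CH12 peak lay in a stretch of 551 kb, against a longest stretch of 241 kb without a B cell peak. The scores of the lists are on different scales and came from libraries of a depth not stated for them, so the part of either in this difference was not tested.

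**Figure D2:**
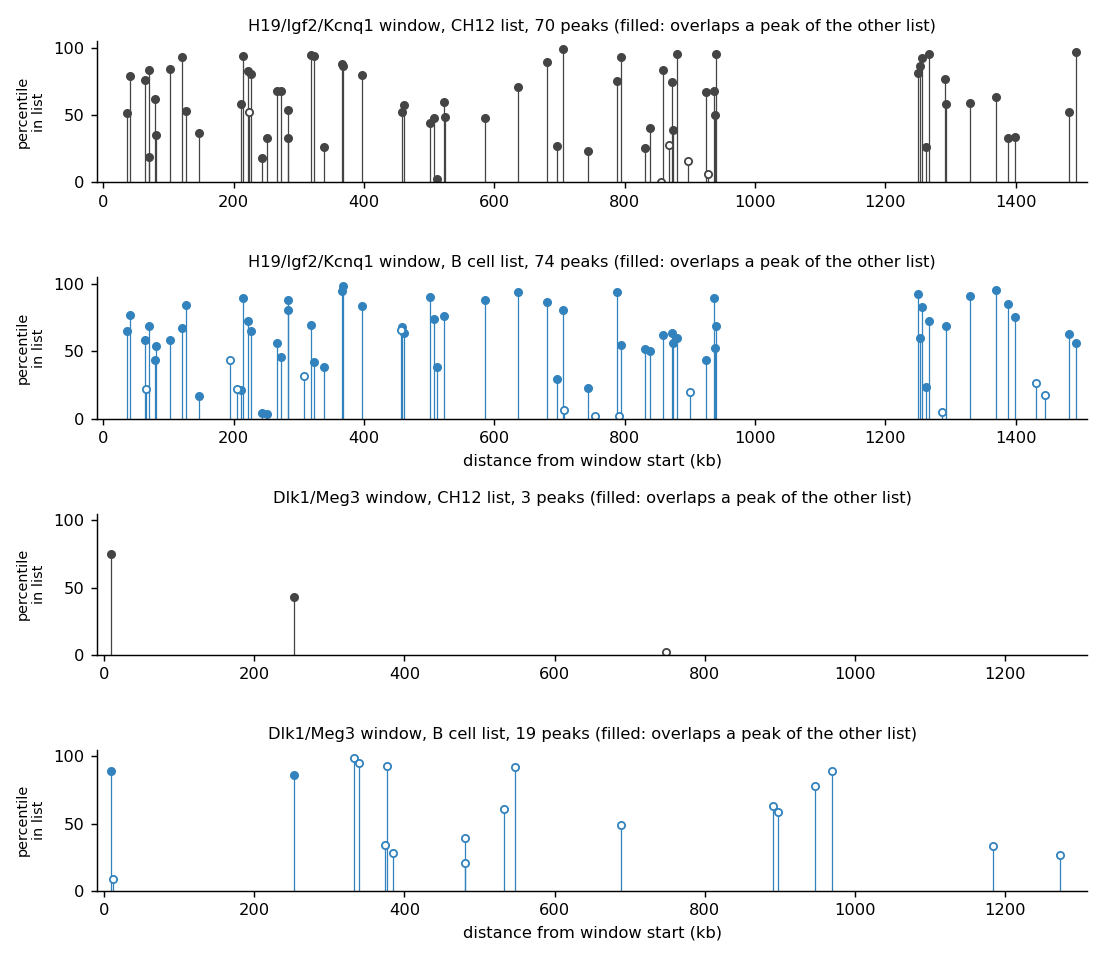
Percentile of each CTCF peak within its own list (y axis) against distance from the window's start in kb (x axis), for the H19/Igf2/Kcnq1 window (upper pair) and the Dlk1/Meg3 window (lower pair). Filled points overlap a peak of the other list: most do in the upper pair, while in the Dlk1/Meg3 window 17 of the 19 B cell points are open.

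The highest CH12 peak of each window differed widely in rank. At H19/Igf2/Kcnq1 it lay at chr7:150104923-150105790, at the 99.4th percentile of its list. At Rasgrf1 it lay at chr9:89721668-89722619 (98.9th percentile), at Grb10 at chr11:11873190-11874030 (96.3rd) and at Igf2r at chr17:12564103-12565488 (96.3rd). Each of these 4 peaks stood at an anchor of both interaction lists. The highest peaks at Peg3 (chr7:6234193-6235583, 94.8th), Gnas (chr2:174499114-174500137, 93.9th) and Mest (chr6:30982835-30983646, 90.5th) stood at an anchor of the wild-type list only. That of Peg10 (chr6:5060265-5060836, 88.4th) stood at no anchor.

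The highest B cell peak of a window was often a different site. At H19/Igf2/Kcnq1 it was chr7:149767251-149768338, at 15.1-fold, which overlapped an anchor of the wild-type list. At Igf2r it was chr17:12614775-12615676 (15.9-fold) and at Peg3 chr7:6382968-6383462 (15.2-fold), and neither had a CH12 counterpart or an anchor. The Igf2r site lay just right of a CH12 peak, chr17:12613737-12614618 (66.3rd percentile), without overlapping it. At Mest, Rasgrf1 and Grb10 the highest B cell peaks, chr6:31139974-31141311 (15.1-fold), chr9:89993611-89994352 (13.9-fold) and chr11:12191313-12191911 (12.4-fold), had a CH12 counterpart and stood at no anchor. At Gnas it was chr2:174136198-174136927 (11.8-fold), at an anchor of both lists, and at Peg10 chr6:4364160-4364567 (9.91-fold), at an anchor of the wild-type list. At Snrpn the highest, chr7:67632995-67633255, reached 5.25-fold, at the 35.8th percentile.

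CH12 peaks without a B cell counterpart were few and mostly weak. They numbered 17 of 206, beside 4142 of 39438 in the whole list. The highest by percentile was chr11:12273190-12273871 in the Grb10 window (74.2nd), followed by chr7:149623206-149623711 at H19/Igf2/Kcnq1 (52.6th). In the Gnas, Peg10, Rasgrf1, Igf2r, Peg3 and Mest windows the highest such peak was between the 6.36th and the 22.4th percentile. B cell peaks without a CH12 counterpart numbered 85 of 271, with a median of 4.98-fold, against 7.89-fold for those with one. In the whole B cell list they numbered 24900 of 59978, and the medians were 4.62-fold and 7.66-fold.

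About 1 CH12 peak in 2 within the windows served as an interaction anchor. Of 206 peaks, 103 overlapped an anchor of either list (50.0%, 43.2 to 56.8), beside 43.6% of the whole list. The H19/Igf2/Kcnq1 window had the highest share, with 46 of 70 peaks at an anchor (65.7%, 54.0 to 75.8). In the other 9 windows together the share was 41.9% (34.0 to 50.3). Rasgrf1 was lowest among the windows with 5 or more peaks, with 5 of 26 at an anchor (19.2%, 8.51 to 37.9). Peaks at an anchor had a median percentile of 68.1 and those at no anchor 40.2, beside 71.7 and 33.5 in the whole list.

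Anchors of the lists were either identical or separate, with 0 partial overlaps. In the windows 46 of the 97 anchors were used in both lists (47.4%, 37.8 to 57.3), 36 were wild-type only and 15 mutant only. Over all 16928 anchors 53.7% were used in both, 4452 were wild-type only and 3381 mutant only. The anchors used in both had a median CH12 peak percentile of 75.9, those of the wild-type list only 55.3 and those of the mutant list only 59.9. Of the 97, 96 overlapped a CH12 peak and 95 a B cell peak (99.0% and 97.9%), beside 97.9% and 97.7% of all 16928; the file headers state that interaction ends were assigned to called CTCF peaks, so these shares follow from how the lists were made. Of the 36 anchors used in the wild-type list only, 11 lay within 10 kb of an anchor of the mutant list. Of the 15 used in the mutant list only, 3 lay within 10 kb of an anchor of the wild-type list. Neither these counts nor the percentiles of the anchor classes were taken over all anchors, so they are a description only.

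Interactions in the windows were fewer in the mutant list. The wild-type list held 92, with 616 tags, and the mutant list 75, with 511 tags, beside 11534 and 11820 interactions in the whole lists. Of those in the windows, 35 were in both lists, 57 only in the wild-type one and 40 only in the mutant one. Over the whole lists these counts were 5400, 6134 and 6420. The share of wild-type interactions found in the mutant list was 38.0% (28.8 to 48.3), beside 46.8% of the whole list, and that of mutant interactions found in the wild-type list was 46.7% (35.8 to 57.8), beside 45.7%. Both intervals include the whole-list value. Matching rose with support, from 10 of 46 wild-type interactions of 3 or 4 tags (21.7%) to 10 of 12 of 10 or more tags (83.3%), beside 30.9% and 81.3% in the whole list.

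The windows together held fewer mutant than wild-type tags after scaling. The log2 ratio of mutant to wild-type tags was -0.42 (95% exact interval -0.59 to -0.25). In the H19/Igf2/Kcnq1 window 323 wild-type tags stood against 236 mutant tags, a log2 ratio of -0.60 (-0.85 to -0.35). Without that window the ratio was -0.24 (-0.48 to 0.0028), from 293 and 275 tags. The intervals count tags as independent, and regions differed by far more than they allow: among 275 tiles with 200 or more tags, 5% lay below -0.60 and 5% above 0.76, and 14 were at or below the H19/Igf2/Kcnq1 value. That window is 1.5 Mb long and the tiles 1 Mb. All of chromosome 7 had a log2 ratio of 0.04.

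The other windows had few tags. Peg3 had 26 wild-type and 9 mutant tags, a log2 ratio of -1.68 (-2.96 to -0.54). It turned to 0.85 (-1.38 to 3.48), from 3 and 6 tags, when both anchors had to lie inside the window, which leaves out 4 of its 5 wild-type and 1 of its 2 mutant interactions. Igf2r had 79 and 88 tags (0.01, -0.45 to 0.46), Gnas 38 and 55 (0.39, -0.24 to 1.02) and Rasgrf1 31 and 36 (0.07, -0.67 to 0.81). Grb10 had 68 and 59 (-0.35, -0.88 to 0.17), Mest 37 and 25 (-0.71, -1.51 to 0.06) and Peg10 6 and 3. In this setting each of these intervals for windows other than Peg3 and H19/Igf2/Kcnq1 includes 0. Under other settings some do not. With 4 or more tags Gnas gave 0.82 (0.07 to 1.61) and Grb10 -0.56 (-1.12 to -0.0059). With scaling by the interactions found in both lists Mest gave -0.77 (-1.56 to -0.00067). All these intervals cover counting error only. Among 1386 tiles with 20 or more tags, 5% lay below -1.39 and 5% above 1.17. The Gnas, Grb10 and Mest values lay within that spread, and the Peg3 value of -1.68 below it. Dlk1/Meg3 had 8 wild-type tags and no mutant interaction, and Snrpn had no interaction in either list; a missing interaction may have had under 3 tags, or an end without a called peak.

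**Figure D3:**
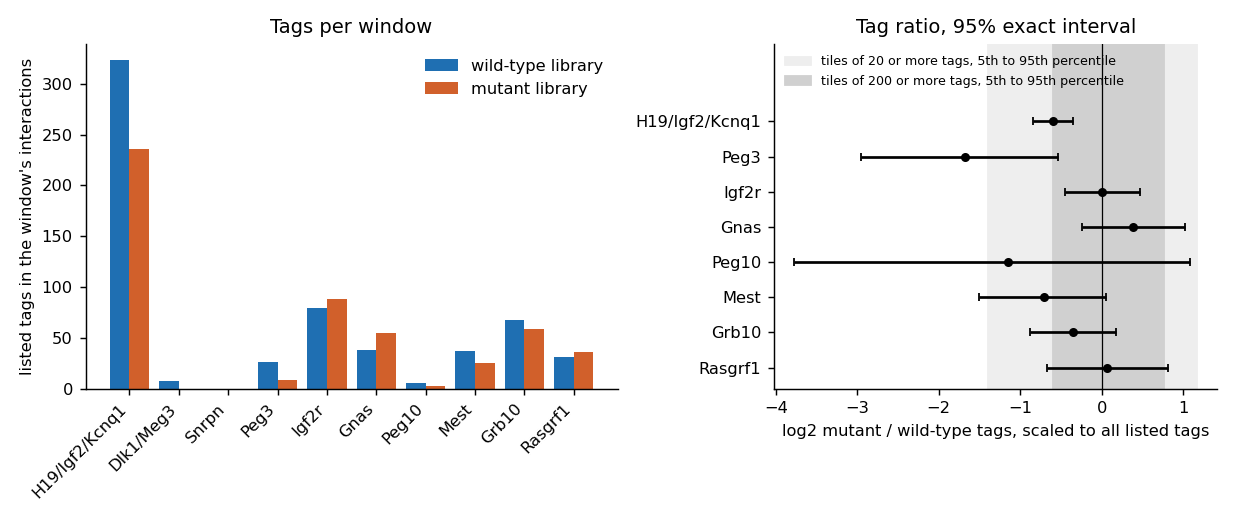
Left, listed tags (y axis) in the interactions of each window (x axis), blue for the wild-type and orange for the mutant library; right, log2 ratio of mutant to wild-type tags, scaled to all listed tags (x axis), with 95% exact intervals and shading for the 5th to 95th percentile of 1 Mb tiles. The H19/Igf2/Kcnq1 window has the most tags and lies at the lower edge of the darker shading, and the windows with few tags have wide intervals.

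In all, 3 interactions differed between the libraries past an adjusted p of 0.05 by the two-sided exact binomial test with Benjamini-Hochberg adjustment over all 17954 interactions. They were 2.27% of the 132 in the windows, beside 0.986% of all interactions. All 3 were in the H19/Igf2/Kcnq1 window and all were higher in the wild-type library, a direction called for 0.585% of all interactions. None of the 132 was higher in the mutant library, a direction called for 0.401% of all interactions. At an unadjusted p under 0.05 there were 7 in the windows and 1084 in all.

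The first called interaction was short and joined the highest CH12 peak of the window to a site 24.7 kb away. It linked chr7:150079827-150081357 with chr7:150104665-150105898 and had 34 wild-type and 6 mutant tags, a log2 ratio of -2.65 (-4.19 to -1.38; adjusted p = 0.00057, exact binomial test). The second anchor kept some other partners but not all. It had 5 partners with 53 tags in the wild-type list and 4 with 24 in the mutant list. In the wild-type list only, it was linked to chr7:150095252-150096244 by 4 tags and to chr7:150271838-150273938 by 3. In the mutant list only, it was linked to chr7:150188509-150189179 by 6. In both lists it was linked to chr7:149922527-149924450, by 5 wild-type and 8 mutant tags, and to chr7:149985008-149986023, by 7 and 4.

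The second called interaction spanned the longest peak-free stretch of the window. It linked chr7:150339288-150340387 with chr7:150649150-150650546, 310.0 kb apart, by 20 wild-type tags and was missing from the mutant list (adjusted p = 0.0078, exact binomial test with 2 tags for the missing value). The partner anchor was in no mutant interaction. The call rests on the assumption of at most 2 mutant tags; an interaction left out for lack of a called peak could have had more, and this was not tested. A neighbouring anchor 1.30 kb further on, chr7:150651847-150653012, was linked to the same left anchor by 17 wild-type and 16 mutant tags. So of these 2 interactions, 1 was listed in both libraries at close tag counts and 1 in the wild-type library alone. The stretch they cross holds no peak of either list over 309 kb, and links of fewer tags cross it too. From chr7:150336747-150338816, 4 wild-type tags alone led to chr7:150649150-150650546, and 6 wild-type and 7 mutant tags to chr7:150651847-150653012. To chr7:150655516-150656646, 3 wild-type and 6 mutant tags led from chr7:150339288-150340387. From chr7:150280221-150281721, 3 mutant tags alone led there.

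The third called interaction lay at the end of the window, at an anchor with 3 partners on its right in both lists. The anchor, chr7:150892193-150893511, was linked to chr7:150949446-150950638, 57.2 kb away, by 25 wild-type and 6 mutant tags, a log2 ratio of -2.21 (-3.78 to -0.89; adjusted p = 0.035, exact binomial test). Its link to chr7:150934026-150934916, 41.6 kb away, was the best supported of all windows, with 44 and 36 tags (-0.44, -1.11 to 0.23). Its link to chr7:150939598-150940657 had 13 and 7 tags. Thus the most distant of the partners had the lowest scaled ratio, and the intervals of the other links include 0.

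The called interactions held 79 of the 323 wild-type tags and 12 of the 236 mutant tags of the window. The other 52 interactions of the window held 244 and 224 tags. They were chosen for their difference, so the remainder is given as a description only. The 35 interactions of all windows found in both lists held 346 wild-type and 330 mutant tags. By counts not scaled to all listed tags, 14 of them had more wild-type tags, 16 more mutant tags and 5 equal tags. Beside that, of 5400 interactions found in both whole lists, 1826 had more wild-type tags and 2803 more mutant tags, also unscaled. After scaling, equal tags give a log2 ratio of mutant to wild-type tags of -0.15, on the wild-type side. The median scaled log2 ratio was -0.15 for the 35 interactions and 0.0039 for the 5400.

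**Figure D4:**
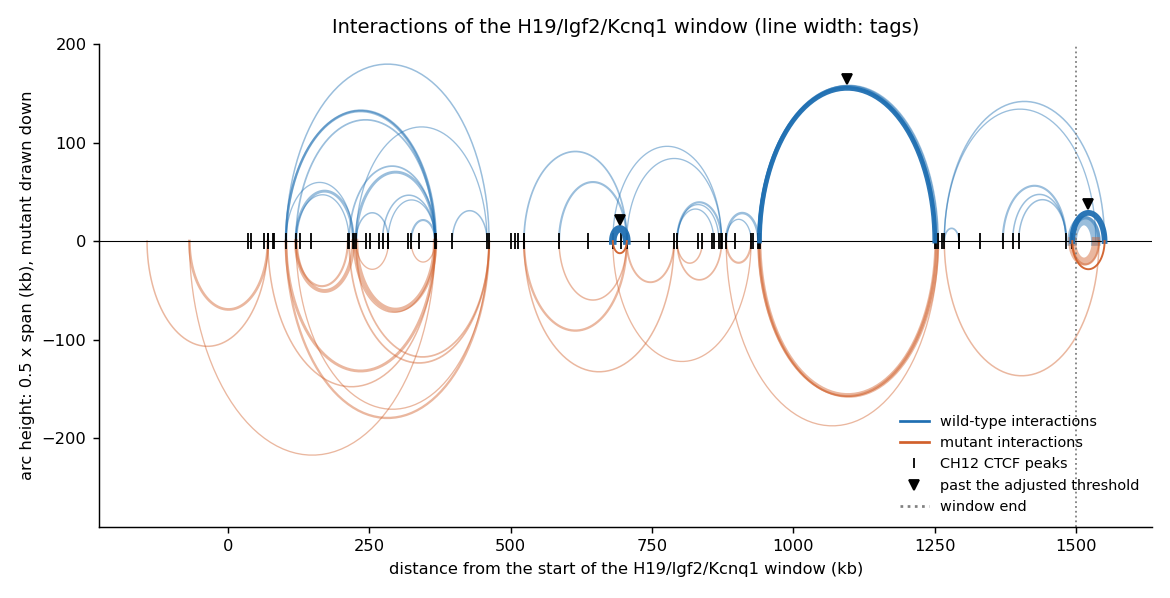
Interactions of the H19/Igf2/Kcnq1 window as arcs over the distance from its start in kb (x axis); arc height grows with span (y axis, 0.5 of the span in kb), wild-type arcs rise in blue, mutant arcs fall in orange, width grows with tags and ticks are CH12 peaks. Triangles mark the 3 interactions past the adjusted threshold, which had 34, 20 and 25 wild-type tags against 6, 0 and 6 mutant tags.

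The anchor with most partners in any window was chr7:149765917-149766924. In wild type it had 7 partners and 44 tags, and in the mutant 6 partners and 43 tags, and every partner in both lists lay to its left. By general knowledge of this locus, and not from an annotation used here, it lies at the control region upstream of H19. On the gene order of GRCm38.p6 the left side leads to Mrpl23, Tnnt3 and Lsp1, and the right side to Igf2, Ins2 and Th. No interaction of at least 3 tags joined this anchor to the right side in either list.

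The partners of this anchor were only partly the same in the lists. It was linked to chr7:149626047-149627046 by 11 wild-type and 19 mutant tags (log2 ratio 0.64, -0.50 to 1.86), to chr7:149502064-149503200 by 9 and 11, and to chr7:149723200-149724408 by 7 and 3. The remaining 4 wild-type partners had 3 to 5 tags and the remaining 3 mutant partners 3 or 4 tags. A neighbouring anchor 0.517 kb to the right, chr7:149767441-149768205, was used in the wild-type list only, with 1 left partner and 7 tags. Its B cell peak, at 15.1-fold, was the highest of the window.

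Further right, chr7:149861280-149862297 had 1 left partner with 4 tags in the wild-type list and 4 left partners with 21 tags in the mutant list; it was singled out after its values were seen. An anchor 2.51 kb to its left, chr7:149857716-149858771, was used in the wild-type list only, with 2 left partners and 7 tags. The link of chr7:149861280-149862297 to chr7:149502064-149503200 had 4 wild-type and 8 mutant tags (0.85, -1.05 to 3.03). No single interaction of these anchors passed the adjusted threshold.

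The other interactions of 10 or more tags in the window did not pass the threshold either. The link between chr7:149519774-149520906 and chr7:149621128-149622174 had 11 and 16 tags, and that between chr7:150336747-150338816 and chr7:150651847-150653012 had 6 and 7. The link between chr7:150193590-150194743 and chr7:150271838-150273938 had 7 and 5 tags, and that between chr7:150280221-150281721 and chr7:150324420-150325695 had 3 and 7. One of them, between chr7:149331155-149332571 and chr7:149469755-149471650, was in the mutant list only, with 10 tags (unadjusted p = 0.058, adjusted p = 0.87, exact binomial test). In all windows, 31 interactions had 10 or more tags over both lists, of which 28 were in both (90.3%), beside 3891 of 4514 in the whole lists (86.2%).

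In the Igf2r window interactions were numerous and close in total. The wild-type list held 13 and the mutant list 15, with 5 in both. The anchor with most partners, chr17:12563890-12565774, had 3 left partners and 31 tags in the wild-type list and 5 left partners and 36 tags in the mutant list, and coincided with the highest CH12 peak of the window. Its link to chr17:12231746-12232642, 333 kb away, had 17 and 16 tags (-0.24, -1.32 to 0.84), and its link to chr17:12228713-12229805 had 7 and 6. A neighbour 2.96 kb to the left, chr17:12559953-12560935, had 3 left partners and 13 tags in the wild-type list and none in the mutant list. Its link to chr17:12493363-12494422, with 7 tags, shared the highest support of the window's interactions found in 1 list only. Also at 7 tags were chr17:12493363-12494422 to chr17:12563890-12565774 in the wild-type list only. In the mutant list only, 7 tags joined chr17:12608812-12609872 to chr17:12724743-12725663, and 7 joined chr17:12727324-12728340 to chr17:13003067-13003919.

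Of the other Igf2r interactions, 3 had 10 or more tags. The link between chr17:13072424-13074686 and chr17:13189007-13190076 had 6 and 10 tags, that between chr17:12906991-12907443 and chr17:13003067-13003919 had 6 in each list, and that between chr17:12231746-12232642 and chr17:12403299-12404342 had 8 and 4. In the mutant list only, a pair of anchors 1.66 kb apart, chr17:12724743-12725663 and chr17:12727324-12728340, took part in interactions with 14 and 11 tags; this pair was also singled out after its values were seen. No interaction of this window passed the adjusted threshold.

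The Gnas window was crossed by long interactions. The median was 367 kb among 9 wild-type and 480 kb among 10 mutant interactions, and the longest, in both lists, was 622 kb. Those of 2 anchors 0.283 kb apart, chr2:174135981-174136986 and chr2:174137269-174138261, all ran to the right. The first had 5 wild-type partners with 24 tags and 3 mutant partners with 15 tags, and the second 2 with 8 and 3 with 21. To chr2:174725846-174727254 the first had 8 wild-type and 3 mutant tags and the second 3 and 8, so the first had more wild-type and the second more mutant tags. Neither link passed the adjusted threshold.

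The best supported interaction of the Gnas window joined chr2:174135981-174136986 to chr2:174757610-174759105 with 6 and 9 tags (0.44, -1.22 to 2.21). The best supported in 1 list only ran from the second anchor to chr2:174683680-174684570 with 9 mutant tags. The 3 mutant partners of chr2:174135981-174136986 were all among its 5 wild-type partners, and all 5 lay to its right. Further in, chr2:174318233-174318810 had 7 different partners over both lists, none in both, with 1 left and 2 right partners in the wild-type list and 4 right partners in the mutant list.

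In the Grb10 window the same layout of a close anchor pair appeared. The pair chr11:11872988-11874121 and chr11:11874582-11875661, 0.461 kb apart, had only left partners in both lists. The first had 4 partners with 43 wild-type tags and 5 with 53 mutant tags, and the second 4 with 19 and 2 with 6. The best supported interaction joined the first to chr11:11743874-11744936 with 25 tags in each list (-0.15, -1.01 to 0.71). On the gene order of GRCm38.p6 the left side of Grb10 leads to Ddc, Fignl1 and Ikzf1, the last a transcription factor of lymphocytes.

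Both Grb10 anchors reached chr11:11361214-11362587, 511.7 and 513.2 kb to the left. The first did so with 6 and 13 tags (0.97, -0.53 to 2.65) and the second with 7 and 3 (-1.37, -3.95 to 0.76). The link of the first to chr11:11399609-11400617 had 5 and 6 tags. The best supported in 1 list only, from the first anchor to chr11:11691202-11691665, had 7 wild-type tags. No interaction of this window passed the adjusted threshold.

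In the Rasgrf1 window 4 interactions were listed, and 3 of them started at chr9:89721389-89722850, the site of its highest CH12 peak. That anchor was linked to chr9:89971453-89972441, 249.8 kb away, by 15 wild-type and 32 mutant tags, a log2 ratio of 0.94 (0.02 to 1.94; unadjusted p = 0.045, adjusted p = 0.77, exact binomial test). It was linked to chr9:89868421-89869300, 146.7 kb away, by 9 wild-type tags, and this link was missing from the mutant list (unadjusted p = 0.044, adjusted p = 0.75). Its other link, to chr9:90021086-90022207, 299.5 kb away, had 4 tags in each list. None of these differences passed the adjusted threshold. All partners of this anchor lay to its right.

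The Peg3 window shared no interaction between the lists. The wild-type list held 5 and the mutant list 2. The best supported, between chr7:6192086-6193323 and chr7:6233971-6235737, 42.1 kb apart, had 11 wild-type tags and was missing from the mutant list (unadjusted p = 0.014, adjusted p = 0.40, exact binomial test). Its right anchor held the highest CH12 peak of the window and was in no mutant interaction. The anchor with most partners, chr7:7073225-7074197, had 1 wild-type and 2 mutant partners.

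The Mest window held 9 wild-type and 6 mutant interactions, with 2 in both. Its best supported interaction joined chr6:30485055-30485800 to chr6:30932337-30933315 with 3 and 6 tags. It was tied in summed tags with the link of chr6:31025471-31026470 to chr6:31125584-31126982, with 4 and 5. The best supported in 1 list only joined chr6:30041172-30041549 to chr6:30307487-30308544 with 7 wild-type tags. The anchor with most partners, chr6:30353069-30354184, had 3 right partners and 11 tags in each list. No interaction of this window had 10 or more tags over both lists.

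The Peg10 window held 2 wild-type interactions and 1 mutant interaction, each with 3 tags, the lowest count that the lists hold. One joined chr6:4363859-4364928 to chr6:4494257-4496486 in the wild-type list. The single interaction of the Dlk1/Meg3 window joined chr12:110552795-110553720 to chr12:110140687-110142876, 411 kb to the left and outside the window, with 8 wild-type tags (unadjusted p = 0.078, adjusted p = 0.97, exact binomial test). Its anchor in the window was the second of the 3 CH12 peaks, and the nearest anchor of the mutant list was 374 kb away.

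**Figure D5:**
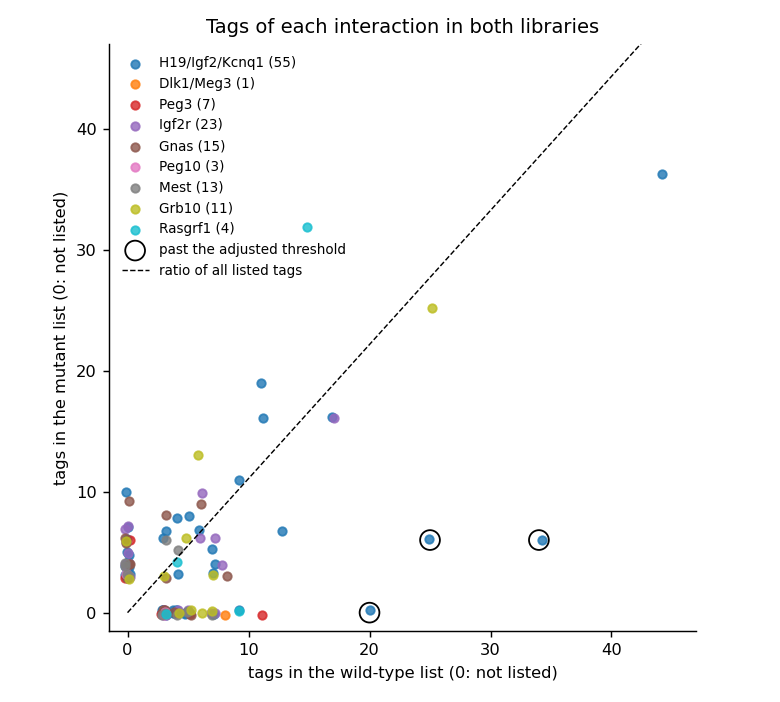
Tags of each of the 132 interactions in the wild-type list (x axis) and the mutant list (y axis), coloured by window, with a dashed line at the ratio of all listed tags and circles around the 3 past the adjusted threshold. Points are shifted by under 0.25 tags to separate them, and most of the interactions listed in 1 library only (at 0 on an axis) have under 10 tags.

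Wild-type interactions had a median span of 170 kb (shortest 9.53 kb, longest 919 kb) and mutant ones of 235 kb (24.7 to 834 kb), beside 131 and 153 kb in the whole lists. The log2 ratio of the medians was 0.47, with an interval from the intervals of both medians of -0.73 to 1.07. Among anchors with 3 or more partners, all partners lay on 1 side for 18 of 22 in the wild-type list (81.8%, 61.5 to 92.7) and 12 of 14 in the mutant list (85.7%, 60.1 to 96.0). In the whole lists these shares were 66.4% and 57.5%. The interval of the wild-type share includes the whole-list value, and that of the mutant share lies above it, from 14 anchors of which several share partners.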

How the data were processed

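The windows, and the values described for them, were chosen with earlier results of these data known. The authors deposited, for each interaction, the count of tags that support it; per the file headers, both ends were assigned to called CTCF peaks holding a core motif, with at least 3 tags and loops up to 2 Mb. The CH12 peak list was deposited with 1 score per peak, of a scale not given in the sources used here, and its peak names start with MACS. The B cell list was deposited in the narrowPeak layout with a fold over background, used here as its value, and −log10 q-values, not used. Coordinates are mm9; per the submitters' processing notes, tools with no stated role were BWA, Bowtie 1.1.1, bedtools 2.25, SAMtools 1.2 and CASAVA 1.8.2. Not given in the sources used here were the interaction caller, any pooling of libraries and whose peaks set the anchors, so a missing interaction may have lacked a called peak or had under 3 tags.

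Interactions matched when both anchors were identical, and peaks when they overlapped by at least 1 bp. Each interaction's tags entered an exact binomial test, two-sided by doubling the smaller tail, against the ratio of all tags in the lists, with 2 tags assumed for a missing interaction and Benjamini-Hochberg adjustment. Tiles of 1 Mb describe the spread between regions. Shares have Wilson and tag ratios exact Clopper-Pearson 95% intervals, for counting error only; tags were not stated to be free of PCR copies.

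Named in each window were the interaction with most tags, every called interaction, the best supported in 1 list only, each with 10 or more tags, the anchor with most partners (summed over the lists), and the highest peaks of each list, with and without a counterpart. Ties went to the first by position. The binomial step was tested on simulated counts, with no spread beyond counting error and known changes placed on well supported interactions only. The overlap rules were tested on a small made-up example. No sequence is printed, as no mm9 genome was used. Alternatives were other scaling, support, matching, peak strength and window extent. Software was Python 3.11.15 with scipy 1.17.1, numpy 2.4.6, matplotlib 3.10.9 and pandas 2.3.3.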

Additional observations from a re-analysis of the deposited data

How the results depend on the processing

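No paired analysis was possible because each genotype had 1 ChIA-PET library. The number of called interactions in the windows was 3 in the main test and 2 or 3 under every alternative tried, always higher in the wild-type library. The interaction missing from the mutant list leaves the tested set when interactions must be in both lists or their anchors in use in both, and the one that ends beyond the window leaves it when both anchors must lie inside. Defining the two-sided p by the likelihood of outcomes, added after seeing the data, called the same 3 in the windows and 212 in place of 177 over all interactions.

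With anchors within 10 kb taken as matching, 52.2% of wild-type interactions were found in the mutant list, beside 58.1% of the whole list. Windows widened by 200 kb gave a log2 tag ratio of -0.25, and leaving out the H19/Igf2/Kcnq1 window, added after seeing the data, -0.24. That omission also moved the share of CH12 peaks at an anchor to 41.9%. With only the stronger peaks of both lists, from the median up, 80.0% of CH12 peaks and 56.6% of B cell peaks had a counterpart (whole lists 79.8% and 51.8%), and 65.2% of CH12 peaks stood at an anchor (whole list 66.0%). With centres within 100 bp the first 2 shares were 80.1% and 60.9% (whole lists 79.0% and 51.9%). The Peg3 tag ratio reversed to 0.85 when both anchors had to lie inside the window. Gnas turned to -0.06 and Igf2r to -0.01 in that setting, Igf2r to -0.05 with scaling by shared interactions, and Grb10 to 0.14 with wider windows, all with intervals that include 0. The cause was not tested. The other 28 alternatives for the main results stayed within the interval, or within 1.5 times the count, of the main value. Window tag sums of 3 to 323 limit every ratio, and with 1 library per genotype no value has a replicate check.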
